A study of Mus musculus with 8 samples.

Results

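The 9 genes described here set the sterol content of a cell, and they were followed in activated mouse B cells with and without Eif4a1, which encodes an RNA helicase of translation initiation. They are Srebf2, Scap, Insig1, Insig2, Stard4, Mylip, Abca1, Abcg1 and Nr1h2. They were chosen by symbol, and all 9 of them were found among the 53242 genes of both deposited tables. Splenic B cells came from C57BL/6 mice of 8 to 12 weeks that were either Eif4a1+/+ CD23-cre (control) or Eif4a1fl/fl CD23-cre (4A1 KO), so that both genotypes carried the Cre, and 4 libraries of each genotype were sequenced. Activation lasted 24 h, in medium with 40 ng/ml IL4, on irradiated CD40LB feeders, which express CD40 ligand and human BAFF. The feeders were removed with an antibody before RNA was extracted. CD23-cre acts from the immature B cell stage of the spleen onwards, and it removes only some of the exons of Eif4a1.

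Replicates 1 and 3 were males, replicates 2 and 4 females, replicates 1 and 2 batch A, and replicates 3 and 4 batch B. Replicate 1 of both genotypes had low viability and was left out of differential expression by the study's methods, so tests below rest on replicates 2 to 4 (n = 3 per genotype) unless all 8 libraries are named. Between 31727557 and 43210858 reads were counted per library. Eif4a1 itself lay between 748 and 939 CPM (counts scaled to library size) in control and between 556 and 689 CPM in 4A1 KO, a count that includes the exons outside the loxP sites. The 8 B cell markers summed to between 3896 and 4142 CPM in control and between 3227 and 3517 CPM in 4A1 KO libraries, whereas 10 T and NK cell markers summed to at most 1.26 CPM. The 13 macrophage and dendritic cell markers summed to between 20.2 and 56.0 CPM in control and to between 12.8 and 20.4 CPM in 4A1 KO, with 9 of the 13 under 1 CPM in every library. Of the 6 of these markers that were tested, Mpeg1 (log2 fold change -1.30, edgeR adjusted p = 0.0359) and Flt3 (-1.89, edgeR adjusted p = 0.000107) fell and Adgre1 rose (0.62, edgeR adjusted p = 0.00392), and the median of the 6 was 0.22, so the sum and the median differed in sign. The 12 fibroblast markers, which would mark feeder cells, summed to between 28.8 and 51.4 CPM in control and between 25.2 and 36.9 CPM in 4A1 KO, with Postn and Timp3 at 0 counts throughout. The part of these other cells in the results was not tested. In bulk RNA, fewer cells of a type and less RNA per cell cannot be told apart.

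Cells hold their cholesterol within narrow limits through opposing transcription programmes. When sterol in the endoplasmic reticulum is low, SCAP escorts the precursor of SREBP2 to the Golgi, where it is cleaved into a transcription factor for genes of sterol synthesis and uptake, and when sterol is high, INSIG proteins hold SCAP back. When oxysterols accumulate, the LXR nuclear receptors switch on the exporters ABCA1 and ABCG1 and the ubiquitin ligase MYLIP, which degrades lipoprotein receptors. Lymphocytes that divide need sterol for new membrane, and the balance between uptake, synthesis and efflux is known to shift when they are activated.

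Srebf2 also carries a microRNA. miR-33 is encoded inside Srebf2, in intron 16 of its 19-exon canonical transcript, and its 5-prime arm lies at chr15:82082328-82082348 on the plus strand of GRCm39. The mature sequence from RefSeq (table of build GRCm38.p6, placed on GRCm39 by exact match) is shown because Srebf2 is its host and sterol exporters are among its known targets, with the seed, bases 2 to 8, in capitals.
mmu-miR-33-5p: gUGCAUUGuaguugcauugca
The 7 bases that pair with this seed, CAATGCA, occur in 7.91% of 20827 canonical 3′ UTRs of the mouse. Among the 9 genes they occur in Abca1, with 3 matches in its 3156-base 3′ UTR, and in Abcg1, with 2 matches in its 3710-base 3′ UTR, and in none of the other 7. Longer UTRs hold the letters more often, and of UTRs within 20% of the length of those of Abca1 and Abcg1, 15.6% and 18.1% have at least 1 match. The matches are close together, within 22 bases in Abca1 and within 17 bases in Abcg1. They are in capitals in the following windows of 30 bases of Abca1 (chr4:53033783-53033812, minus strand), where 2 of the matches overlap, and 29 bases of Abcg1 (chr17:31333970-31333998, plus strand).
Abca1: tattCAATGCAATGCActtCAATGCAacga
Abcg1: gcaacgCAATGCAacgCAATGCAgacagt
A match of letters is not a measured site. miR-33 itself was not analysed here.

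The promoters were read for letters of the factors that act on this pathway, in the 250 bases before each RefSeq start, on both strands. The RefSeq table held 10 starts for 7 of the 9 genes. These starts differ from the ends of the GENCODE gene positions given below. Some windows, among them those of Insig1 and Srebf2, lie partly inside the GENCODE gene, and those of Scap lie wholly inside it. The core of a sterol regulatory element, TCACNCCAC, was in none of the 10, against 1.05% of all 32851 promoters, and a pair of LXR boxes AGGTCA with 4 bases between them was in none either, against 0.015%. A single LXR box, found in 14.0% of all promoters, was in Insig1, where it overlaps an E-box CACGTG, the letters bound by several basic helix-loop-helix factors. The E-box, found in 6.02% of all promoters, was also in Abca1 and in 1 of the 2 promoters of Scap. The NF-Y box CCAAT, to which a cofactor of SREBP binds, was in 33.9% of all promoters, with 1 match in Srebf2, 1 in Insig1, 3 in Mylip and 3 in the first promoter of Insig2. Short stretches of the promoters of Insig1, Srebf2, Mylip and Abca1 are printed 5′ to 3′ on the strand of the gene, with the letters in capitals, to show the members of both arms side by side. Only exact letters were counted, so elements that differ from these letters by any base were not searched for. The absence of letters from these windows says only that the exact letters are not in these bases. Whether a sterol or LXR element with other letters lies there was not examined.
Insig1, E-box (chr5:28276299-28276324): tgggtgaggtCACGTGgctccggtgg
Insig1, NF-Y box (chr5:28276184-28276208): ccctcctcccATTGGctccggcggc
Srebf2, NF-Y box (chr15:82031325-82031349): tcgcgcgccgATTGGctaatgcaag
Mylip, NF-Y box (chr13:45543141-45543165): gcacgctgtgATTGGcggagtccgg
Abca1, E-box (chr4:53160027-53160052): gccatgtctcCACGTGctttctgctg

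To ask whether the loss of Eif4a1 shifted uptake against efflux, the counts of the 9 genes were compared between genotypes. In 4A1 KO cells Insig1 and Stard4 fell, and Mylip, Abca1 and Abcg1 rose, while Srebf2, Scap, Insig2 and Nr1h2 stayed under the fold threshold. A gene was called when the adjusted p of edgeR's quasi-likelihood test was under 0.05 and the absolute log2 fold change was above 0.5. By this rule 2 of the 9 genes were called decreased, against 13.6% of the 14218 genes tested, and 3 were called increased, against 11.7%. An adjusted p under 0.05 without regard to fold was reached by 8 of the 9 genes and by 53.5% of all genes, so that this criterion alone said little about these 9. In the 8 libraries, all 4A1 KO libraries lay above all control libraries for 3 of the 9 genes (Scap, Abca1 and Nr1h2), against 17.2% of genes, and below them for 3 (Srebf2, Insig1 and Stard4), against 19.6%.

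**Figure D1:**
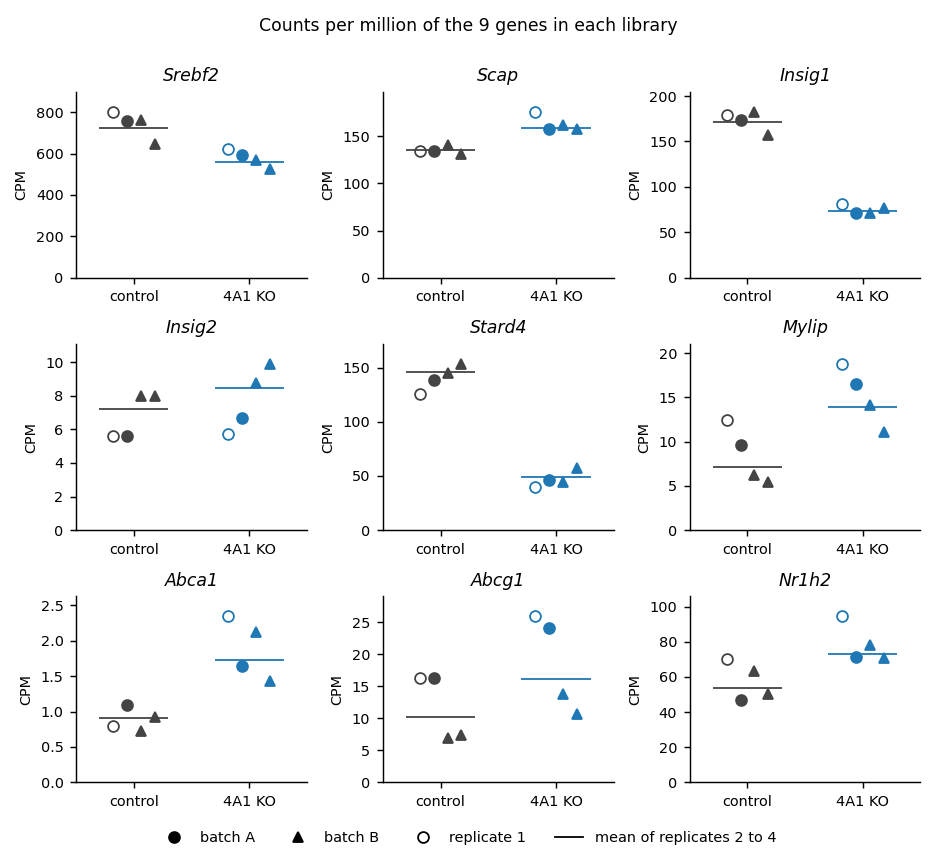
CPM (y axis, linear from 0) of the 9 genes in the control (grey) and 4A1 KO (blue) libraries, with circles for batch A, triangles for batch B, open symbols for replicate 1 and a line at the mean of replicates 2 to 4. Stard4 and Insig1 separate the genotypes with the widest gaps, and Mylip, Abcg1 and Insig2 differ between batches within each genotype.

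The SREBP2 arm was led, by level in TPM (a unit scaled by transcript length and library size), by Srebf2 (ENSMUSG00000022463, chr15:82031382-82093201, plus strand), which encodes the SREBP2 precursor. Control replicates 1 to 4 had 803, 758, 762 and 649 CPM of Srebf2, and 4A1 KO replicates 1 to 4 had 621, 591, 567 and 524 CPM. The highest 4A1 KO value was under the lowest control value. The mean went from 723 ± 64.1 to 561 ± 33.9 CPM (SD, n = 3 each), a log2 fold change of -0.36 (SE 0.045, edgeR adjusted p = 4.31e-05), which is under the fold threshold, so Srebf2 was not called. Shisa8, on the opposite strand of the same locus, had a log2 fold change of -1.18, and counting by strand keeps its reads apart from those of Srebf2.

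Scap (ENSMUSG00000032485, chr9:110158229-110214024, plus strand), the escort of SREBP precursors, went the other way from Srebf2. Its control libraries had 135, 134, 141 and 131 CPM and its 4A1 KO libraries 176, 158, 162 and 157 CPM, in the order of replicates 1 to 4. The groups did not overlap, but the difference was small, with a log2 fold change of 0.23 (SE 0.049, edgeR adjusted p = 0.0018), and Scap was not called.

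Insig1 and Insig2, paralogs that both retain SCAP in the endoplasmic reticulum, diverged. Insig1 (ENSMUSG00000045294, chr5:28276315-28283668, plus strand), itself a well-known target of SREBP, had 179, 174, 183 and 157 CPM in control replicates 1 to 4 and 81.1, 70.7, 71.3 and 76.8 CPM in the 4A1 KO. All 4A1 KO libraries were far below the lowest control. The mean of replicates 2 to 4 was 171 ± 13.1 CPM in control and 72.9 ± 3.32 CPM in 4A1 KO (SD, n = 3), and Insig1 fell with a log2 fold change of -1.23 (SE 0.067, edgeR adjusted p = 6.24e-07). A stretch of 189 bases of its transcript is 98.9% identical to the predicted gene Gm37784, which leaves the origin of reads from there uncertain.

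Insig2 (ENSMUSG00000003721, chr1:121181760-121260400, minus strand), the paralog that does not depend on SREBP in the same way, was much scarcer, at a mean of 5.55 TPM in control against 128 TPM for Insig1. It had 5.62, 5.59, 8.01 and 7.96 CPM in control replicates 1 to 4 and 5.73, 6.67, 8.75 and 9.90 CPM in 4A1 KO. The genotypes overlapped, because both batch B control libraries exceeded both batch A libraries of the 4A1 KO. The log2 fold change was 0.23 (SE 0.11, 95% interval -0.0049 to 0.47, edgeR adjusted p = 0.0915), so a change was not shown for Insig2, and the interval contains values close to the fold threshold. In TPM, limma gave an adjusted p of 0.0449 for a log2 difference of 0.31, also under the fold threshold, and this p was above 0.05 with all 8 libraries (limma adjusted p = 0.0776), without the replicate block (0.254), without a filter on low TPM (0.141) and without the libraries numbered 2 (0.189), 3 (0.0778) or 4 (0.0846).

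Among the genes of uptake and intracellular transport, Stard4 (ENSMUSG00000024378, chr18:33332197-33346942, minus strand) had the largest difference of the 9. It encodes a soluble carrier that moves cholesterol between the plasma membrane and the endoplasmic reticulum, and it is a target of SREBP2. Control replicates 1 to 4 had 126, 138, 145 and 154 CPM of Stard4, and 4A1 KO replicates had 39.8, 46.6, 44.0 and 57.7 CPM. The highest 4A1 KO library was below the lowest control library by a wide margin. The mean of replicates 2 to 4 was 146 ± 7.63 CPM in control and 49.4 ± 7.24 CPM in 4A1 KO (SD, n = 3). Stard4 fell with a log2 fold change of -1.57 (SE 0.065, edgeR adjusted p = 1.23e-07).

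Mylip (ENSMUSG00000038175, chr13:45543215-45565501, plus strand) encodes the ligase, also known as IDOL, that LXR uses to limit lipoprotein uptake. It had 12.4, 9.57, 6.18 and 5.49 CPM in control replicates 1 to 4 and 18.8, 16.6, 14.1 and 11.1 CPM in 4A1 KO replicates. Each 4A1 KO library was above the control library of the same number in 4 of 4 pairs, but the groups as wholes overlapped, since the first control library exceeded the last 4A1 KO library. The overlap followed the batches. Levels were lower in batch B than in batch A in control (log2 difference -0.92) and in 4A1 KO (-0.48), and within batch A and within batch B the 4A1 KO libraries lay above the control libraries, with mean log2 differences of 0.69 and 1.11. In the fit with batch and sex, Mylip rose with a log2 fold change of 1.00 (SE 0.11, edgeR adjusted p = 1.69e-05).

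On the efflux side, Abca1 (ENSMUSG00000015243, chr4:53030787-53159900, minus strand), which loads cholesterol onto lipid-poor apolipoprotein, was the least abundant of the 9 genes per length, at 0.164 TPM in control. It was covered by 32, 44, 30 and 40 counts in control replicates 1 to 4 and by 74, 63, 86 and 61 counts in 4A1 KO replicates. These correspond to 0.80, 1.09, 0.72 and 0.92 CPM in control and 2.34, 1.63, 2.12 and 1.42 CPM in 4A1 KO. All 4A1 KO libraries were above all control libraries, and the 4A1 KO males (replicates 1 and 3) were the highest. Abca1 rose with a log2 fold change of 0.92 (SE 0.24, edgeR adjusted p = 0.00753). The call rested on the libraries numbered 3, without which the log2 fold change was 0.61 (edgeR adjusted p = 0.0913), and DESeq2 did not make it (adjusted p = 0.0693). Its mean stayed under the 1 TPM needed for the limma test.

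Abcg1 (ENSMUSG00000024030, chr17:31276649-31336969, plus strand), which passes cholesterol on to high-density lipoprotein, was present at 3.92 TPM in control and divided sharply by batch. Control replicates 1 to 4 had 16.2, 16.2, 6.88 and 7.37 CPM, and 4A1 KO replicates had 25.9, 24.1, 13.8 and 10.6 CPM. Batch A control libraries thus exceeded both batch B libraries of the 4A1 KO. Within batch A the 4A1 KO libraries were higher by 0.62 on the log2 scale and within batch B by 0.77, without overlap in either. Abcg1 rose with a log2 fold change of 0.70 (SE 0.11, edgeR adjusted p = 0.000254). Without the replicate block, that is, without batch and sex in the fit, the same difference was lost in the spread between batches (log2 fold change 0.67, edgeR adjusted p = 0.234).

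Nr1h2 (ENSMUSG00000060601, chr7:44199036-44203406, minus strand) encodes LXR beta, the LXR found in most tissues. It had 70.2, 46.8, 63.4 and 50.5 CPM in control replicates 1 to 4 and 94.5, 71.3, 77.9 and 70.6 CPM in the 4A1 KO. In CPM every 4A1 KO library was above every control library, by a narrow margin, but in TPM the genotypes overlapped, since control replicate 1 (81.8 TPM) was above 4A1 KO replicates 2 (79.4 TPM) and 4 (79.7 TPM). The log2 fold change was 0.46 (SE 0.067, edgeR adjusted p = 0.000141), just under the fold threshold, and without the libraries numbered 3 it was 0.55 (edgeR adjusted p = 0.00023) and above it. The paralog Nr1h3, LXR alpha, was covered by 1 to 8 counts per library and was not tested, so that the LXR transcript seen in these cells was nearly all Nr1h2.

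**Figure D2:**
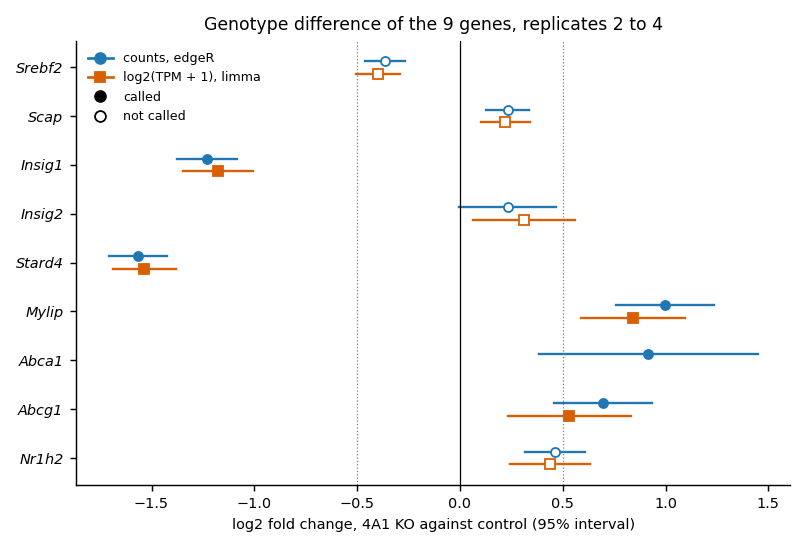
Log2 fold change of 4A1 KO against control (x axis) with its 95% interval for the 9 genes (y axis), from counts with edgeR (circles) and from log2(TPM + 1) with limma (squares), replicates 2 to 4 (n = 3 per genotype). Filled symbols passed the adjusted p and the fold threshold (dotted lines at -0.5 and 0.5), and Abca1 has no TPM estimate because its mean was under 1 TPM.

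The deposited TPM gave a second estimate from a separate quantification. On the scale of log2(TPM + 1), limma called 8.42% of 12976 genes increased and 11.8% decreased. Of the 8 genes tested on this scale, Stard4 had a difference of -1.54 (SE 0.063, limma adjusted p = 0.000685), Insig1 of -1.18 (SE 0.070, limma adjusted p = 0.000685) and Mylip of 0.84 (SE 0.10, limma adjusted p = 0.00163). Abcg1 had a difference of 0.53 (SE 0.12, limma adjusted p = 0.0137) and was called, but not without the libraries numbered 3 (0.40, limma adjusted p = 0.0645) nor without the replicate block (limma adjusted p = 0.238). Srebf2 (-0.40), Scap (0.22), Insig2 (0.31) and Nr1h2 (0.44) were again under the fold threshold.

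Levels of different genes were compared in TPM, which are per length. In control, Srebf2 was the most abundant at 312 ± 18.8 TPM, followed by Insig1 at 128 ± 6.29 TPM (SD, n = 4 libraries). Nr1h2 (66.8 TPM), Scap (63.1 TPM) and Stard4 (58.3 TPM) came next, and the ranges of neighbours among these 3 overlapped. Insig2 (5.55 TPM), Mylip (5.13 TPM) and Abcg1 (3.92 TPM) were close together with overlapping ranges, and Abca1 was last at 0.164 ± 0.0284 TPM. In 4A1 KO cells Srebf2 was still first at 235 ± 10.7 TPM, but Nr1h2 (89.1 TPM) and Scap (75.3 TPM) stood above Insig1 (56.6 TPM), which stood above Stard4 (19.2 TPM), without overlap between any of these neighbours. Mylip (9.12 TPM), Insig2 (6.67 TPM) and Abcg1 (6.14 TPM) overlapped, and Abca1 was again last at 0.338 ± 0.0684 TPM.

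Ratios between paralogs (Insig1 to Insig2) and between genes of opposing roles (Stard4 to Abca1 and Srebf2 to Nr1h2) were then taken within each library, which removes the scaling between libraries. The TPM ratio of Insig1 to Insig2 was 26.8, 31.2, 21.2 and 17.3 in control replicates 1 to 4 and 12.5, 8.58, 7.39 and 7.13 in 4A1 KO, with no overlap. The Stard4 to Abca1 ratio was between 284 and 441 in control and between 38.7 and 88.2 in 4A1 KO, and the Srebf2 to Nr1h2 ratio between 4.01 and 6.31 and between 2.30 and 3.06. The mean log2 ratios differed by -1.44 (4.56 ± 0.37 against 3.12 ± 0.37), by -2.65 (8.48 ± 0.26 against 5.83 ± 0.52) and by -0.84 (2.24 ± 0.29 against 1.41 ± 0.18), in each case lower in 4A1 KO (SD, n = 4 libraries). All 3 ratios gave a two-sided p of 0.0286 in an exact permutation test, which is the smallest that 4 libraries against 4 allow, and the value is unaltered by Benjamini-Hochberg adjustment over the 3. The p restates the separation of the single genes, which was known when the pairs were chosen. The TPM ranges of the single genes left no other outcome possible for any of the 3 ratios. For Stard4 to Abca1, neither gene overlapped between genotypes and they differed in opposite directions. Insig2 and Nr1h2 overlapped between genotypes in TPM, but by a smaller factor than that by which Insig1 and Srebf2 were apart. The test takes the libraries as unpaired. With libraries paired by replicate number, 2 of 16 sign patterns were as extreme for each ratio, the fewest that 4 pairs allow, so a paired exact test cannot pass 0.05 here. The 3 differences were alike within batch A (-1.48, -2.65 and -0.92) and within batch B (-1.40, -2.65 and -0.75). The ratio to Abca1 rests on the few counts of that gene.

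**Figure D3:**
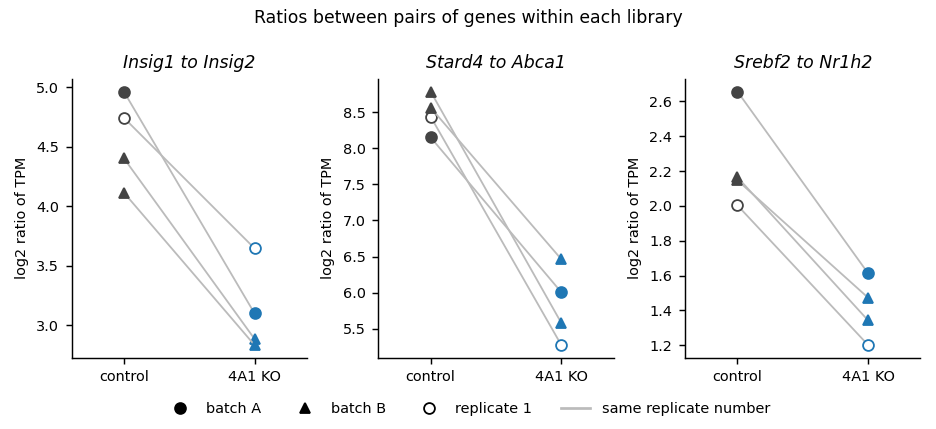
Log2 ratio of TPM between pairs of genes in each library (y axis; control grey, 4A1 KO blue; circles batch A, triangles batch B, open symbols replicate 1), with grey lines joining libraries of the same replicate number. All 4 lines run downwards in each panel, with mean differences of -1.44, -2.65 and -0.84 from left to right.

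The genotype difference was also compared between sexes and between batches with interaction terms in all 8 libraries. Between the sexes, edgeR found 0 of 14211 genes at an adjusted p under 0.05 and 392 at an unadjusted p under 0.05. Among the 9 genes Abca1 had the largest difference between the sexes, with a log2 fold change greater by 0.94 in males than in females (95% interval 0.19 to 1.69, unadjusted p = 0.0188 and adjusted p = 1 in edgeR). Between batches, the log2 fold change of Mylip was greater by 0.42 in batch B than in batch A (95% interval 0.055 to 0.78, unadjusted p = 0.0281 and adjusted p = 0.999 in edgeR). Neither passed the adjusted threshold, and for the other 7 genes the unadjusted p of both interactions was above 0.05.

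Of 18 partners of SREBP in transport, cleavage and degradation, all tested, 2 rose and 2 fell, near the shares of all genes tested (11.7% increased and 13.6% decreased), and their median log2 fold change was 0.07 against 0.0066 over all genes tested. Rnf145, a sterol-regulated ligase that acts on SCAP, fell (log2 fold change -0.70, SE 0.073, edgeR adjusted p = 2.34e-05). Hsp90b1, a chaperone of the endoplasmic reticulum, fell (-0.57, SE 0.043, edgeR adjusted p = 1.59e-06), and Vcp, the ATPase that extracts proteins for degradation, had a log2 fold change of -0.47 and was not called. Srebf1, the paralog of Srebf2 and itself an LXR target, had a log2 fold change of -0.21 and was not called.

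Among 22 genes of lipoprotein uptake, lysosomal release and sterol transfer, 20 were tested, of which 5 fell and 0 rose at the fold threshold, against 13.6% and 11.7% of all genes, with a median of -0.18. At an adjusted p under 0.05 without regard to fold, edgeR placed 5 of the 20 higher and 9 lower, against 53.5% of all genes in either direction. Tmem97, a regulator of the lysosomal cholesterol exporter NPC1, fell (log2 fold change -0.97, SE 0.067, edgeR adjusted p = 1.04e-06), as did Insig1 and Stard4. Npc2, the soluble lysosomal cholesterol carrier, had a log2 fold change of -0.48, and Gramd1a, which carries cholesterol from the plasma membrane to the endoplasmic reticulum, of 0.50, and neither passed the fold threshold.

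Of 19 LXR targets and partners, listed without the 9 genes, 16 were tested, 3 rose and 3 fell, against 11.7% and 13.6% of all genes. The median log2 fold change was -0.10, and leaving out each replicate gave medians of -0.13 to 0.07, so its sign was not stable. Not all of the genes that rose or fell are named here. Arl4c, a small GTPase known as an LXR target in cholesterol efflux, rose (log2 fold change 1.74, SE 0.15, edgeR adjusted p = 8.88e-06). Scd1, a fatty acid desaturase that both LXR and SREBP1 induce, fell (-0.83, SE 0.076, edgeR adjusted p = 6.29e-05), as did Rxra, a partner with which LXR binds DNA (-0.75, SE 0.097, edgeR adjusted p = 5.6e-05).

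Of 11 genes of esterification and oxysterols, 7 were tested, 1 rose and 1 fell, near the shares of all genes (11.7% and 13.6%), with a median of 0.08. Hsd3b7, an enzyme that inactivates oxysterols on the way to bile acids, rose (log2 fold change 0.94, SE 0.16, edgeR adjusted p = 0.000436) from a low level of 0.44 TPM in control. Soat2, which esterifies cholesterol, was covered by 6 to 36 counts per library and fell from 0.51 TPM in control (-1.15, SE 0.43, edgeR adjusted p = 0.0403). This call was lost in DESeq2 (adjusted p = 0.214), without the replicate block (edgeR adjusted p = 0.0581) and without the libraries numbered 2 (log2 fold change -0.55, edgeR adjusted p = 0.304) or 3 (edgeR adjusted p = 0.0683). Soat1, at 7.30 TPM in control the more abundant of the esterifying enzymes, had a log2 fold change of 0.18, and Nceh1, which hydrolyses cholesteryl esters, of 0.17. Ch25h, Cyp7b1 and Cyp46a1, which make or clear oxysterols, had 0 counts in all 8 libraries.

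The cholesterol synthesis enzymes, targets of SREBP2 like Insig1 and Stard4, moved together. Of 21 enzymes, all tested, 20 fell and 0 rose, against 13.6% and 11.7% of all genes, with a median log2 fold change of -1.51. The changes of Insig1 (-1.23) and Stard4 (-1.57) lay within the range of these enzymes, for example Sqle (-1.45, SE 0.072, edgeR adjusted p = 9.93e-07), Idi1 (-1.49, SE 0.078, edgeR adjusted p = 1.47e-06) and Sc5d (-1.01, SE 0.069, edgeR adjusted p = 9.76e-07), whereas Srebf2 (-0.36) had a smaller difference than 20 of the 21.

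**Figure D4:**
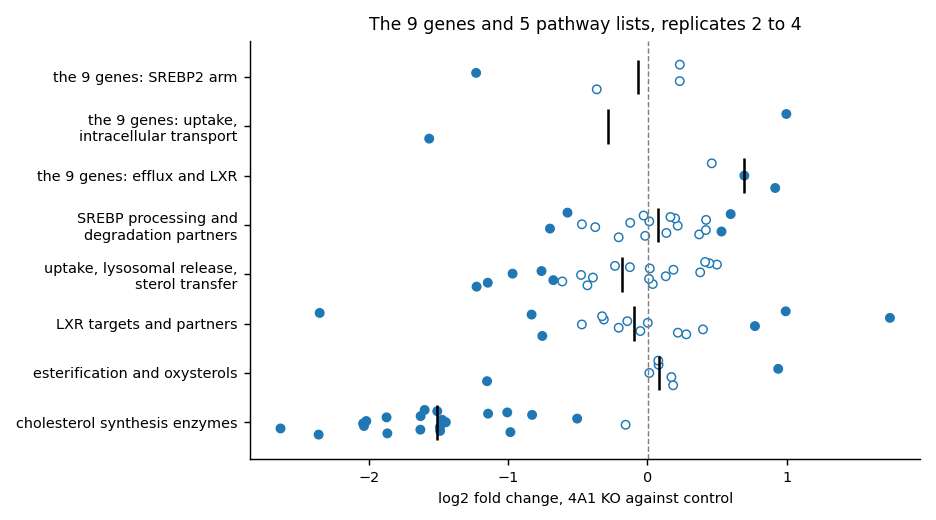
Log2 fold change of 4A1 KO against control (x axis) for each tested gene of the 3 groups of the 9 genes and of 5 pathway lists (rows), with filled points for called genes, black bars for the median of each row and a dashed line for the median of all genes tested, 0.0066. The synthesis enzymes sit at a median of -1.51, and the other 4 lists spread to both sides of 0.

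The genes whose levels ran most nearly parallel to each called gene were found by Pearson's r of log2 CPM over the 8 libraries, and 8382 genes that averaged 10 CPM or more were considered. Insig1 ran closest to the predicted gene Gm49383, Pdia6 and Sdf2l1 (r between 0.997 and 0.998), of which the latter pair encode factors of protein folding in the endoplasmic reticulum. Stard4 ran closest to Mrps25, Polr3k and Rnaseh2b (r between 0.995 and 0.997). The genes closest to the risers were likewise found for Mylip (Pias3, Pcif1 and Smarcd1, r between 0.990 and 0.995), Abca1 (Snx5, Maz and Dclk2, r between 0.978 and 0.994) and Abcg1 (Msra, Bcl10 and Btg1, r between 0.988 and 0.993). These values share the contrast of genotypes and, for Mylip and Abcg1, that of batches, and they describe likeness in these 8 libraries only.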

How the data were processed

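RNA of activated splenic B cells was compared in 8 libraries, 4 per genotype, grouped by their labels. Per the labels and methods, the authors trimmed reads with Trim Galore 0.6.6, mapped them to GRCm39 with HISAT2 2.1.0 and deposited raw counts made with Seqmonk over merged isoforms with opposing strand-specific pairs. The authors deposited TPM from StringTie 2.1.1 on the same alignments. The treatment of multi-mapped reads is not given in the sources used here.

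Counts of replicates 2 to 4 were analysed with edgeR 4.0.16 in R 4.3.3 (filterByExpr, TMM, robust quasi-likelihood test with batch and sex, Benjamini-Hochberg adjustment over all genes, two-sided). Batch and sex equal the replicate number as a block in these 6 libraries. Same-numbered libraries paired by these labels, and their deviations from the genotype means correlated at 0.51, 0.50 and 0.38 across genes. TPM were tested with limma 3.58.1 on log2(TPM + 1) over genes averaging 1 TPM or more, and ratios with exact permutation tests. Depth was between 38488341 and 43210858 counts in the 6 libraries. CPM used TMM over all 8 libraries, and standard deviations are between libraries. Positions and transcripts are from GENCODE M39 on GRCm39, and identities over at least 100 bases and 95% were sought among transcripts.

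The 9 genes, the lists and the tests were chosen with earlier results of these data known. Named were the 9 genes, Eif4a1, up to 4 genes per pathway list with the smallest adjusted p, the paralogs Srebf1 and Nr1h3, and the 3 genes most alike to each called gene. Shisa8, Flt3 and the genes at 0 counts were named after their values were seen. Some genes selected this way are not reported here. On simulated counts of 14061 genes, of which 198 had been changed, the edgeR test recovered 179 with 8 false calls. The simulated counts held no batch or sex effect, and every planted change was larger than the fold threshold. The recovery therefore does not speak for genes that differ between batches or lie near the threshold. Alternatives were DESeq2 1.42.0, its size factors, upper quartile scaling, other filters and pseudocounts, no replicate block, all 8 libraries and leaving out each replicate, and a test without robust estimation was added after the data had been examined.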

Additional observations from a re-analysis of the deposited data

How the results depend on the processing

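The direction of all 9 genes was the same under every alternative run, and Insig1, Stard4 and Mylip passed the thresholds in all of them, in counts and in TPM. Abca1 (main log2 fold change 0.92) was not called by DESeq2 without shrinkage (0.92, adjusted p = 0.0693) or with normal shrinkage (0.51), and leaving out each replicate gave 0.61 to 1.09; without a filter on low TPM its difference on the log2(TPM + 1) scale was 0.17 (limma adjusted p = 0.119), a scale that compresses its TPM means of 0.169 in control and 0.316 in 4A1 KO (n = 3). Abcg1 was not called without the replicate block, at 0.67 in counts and 0.53 in TPM, nor at 0.53 without a filter on low TPM (limma adjusted p = 0.0835), and leaving out each replicate gave 0.56 to 0.77 in counts and 0.40 to 0.64 in TPM. The replicate block changed no other call among the 9 genes. Nr1h2 passed the fold threshold in counts without replicate 3, with a range of 0.39 to 0.55 when each replicate was left out, and in TPM without replicate 4, with a range of 0.33 to 0.51. The test without robust estimation called the same 5 of the 9 genes.

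Ratios computed with exact tests cannot reach 0.05 with a replicate left out or with the sign-flip test of the replicate block, since both designs are too small for it. Leaving out each replicate gave differences of -1.55 to -1.30 for Insig1 to Insig2, -2.84 to -2.47 for Stard4 to Abca1 and -0.89 to -0.77 for Srebf2 to Nr1h2, and the block kept -1.44, -2.65 and -0.84. DESeq2 with normal shrinkage called 1088 genes increased, against 1659 in the main test. Of the SREBP partners, leaving out each replicate gave 1 to 2 increased and 2 to 3 decreased. Of the uptake list, upper quartile scaling gave 1 increased in place of 0, and leaving out each replicate 0 to 1. With all 8 libraries and without replicate 4, 6 genes of this list were decreased in place of 5. Of the LXR list, DESeq2 with and without shrinkage gave 2 increased in place of 3. The fit without the replicate block and that without replicate 4 gave the same 2, and the latter gave 4 decreased in place of 3. Of the esterification list, DESeq2 with and without shrinkage and the fit without the replicate block gave 0 decreased in place of 1, and leaving out each replicate 0 to 1. Of the synthesis enzymes, 19 were decreased in place of 20 with upper quartile scaling, with DESeq2 and normal shrinkage, and without replicate 2 or 3. The genotype effect differed by batch in 2 genes without a filter on low counts, against 1 in the main test. Counts of 30 to 86 reads limit what can be said of Abca1.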
